A study of Mus musculus with 2 samples.

Results

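The granins and their companion proteins of the dense-core granule are the subject here, as read in mouse islet RNA. The set holds 9 of the 44713 genes in the deposited count table, taken by gene symbol: the granins Chga, Chgb, Scg2, Scg3, Scg5 and Vgf, the granule protein Resp18, and the granule membrane proteins Ptprn and Ptprn2. Islet RNA was sequenced from db/db mice, labelled Lepr-/-, and from db/m controls, labelled wild type, both on the C57BL/6 background. In db/db mice the leptin receptor is defective and the animals become obese and diabetic. The labels used here give no age, sex or number of animals, and both library titles carry the number 4. The design text speaks of sequencing in triplicate, whereas the data analysed here hold 1 library from each group, so the spread between animals is unknown and no p-value is given. Each ratio is the db/db level over the db/m level, with an exact 95% interval that covers counting error only.

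Endocrine cells and neurons store peptides in dense-core granules and release them when calcium rises. Granins are acidic, soluble proteins that aggregate with hormones in the trans-Golgi network and are packed into the forming granule, and several are cut at pairs of basic residues into smaller peptides. In the islet, granins are made in beta, alpha, delta and PP cells, so their messenger RNA is a trait of endocrine cells in general. Ptprn and Ptprn2 are transmembrane proteins of the receptor-type tyrosine phosphatase family that sit in the granule membrane, and both are autoantigens in autoimmune diabetes.

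The db/m library held 16271129 counts and the db/db library 18233695, and 1 count stood for 0.0653 CPM (counts scaled for the size and composition of the library) in the first and 0.0516 CPM in the second. Lepr, the gene named in the genotype label, had 4 counts in the db/m library and 3 in the db/db library, too few to check the label. Although the samples are labelled as islet cells, 31 genes of acinar cells took 72.7% of the db/m counts and 72.4% of the db/db counts, while the 7 islet hormone genes took 0.147% and 0.193%. The 9 granule genes were therefore read from a small endocrine part of each library, with 2115 counts in the db/m library (0.0130% of its counts, exact binomial interval 0.0125% to 0.0136%) and 5772 in the db/db library (0.0317%, 0.0308% to 0.0325%).

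Most granin and granule genes stood higher in the db/db library, and they did so unevenly. Chgb, Ptprn, Scg5, Scg3, Resp18 and Scg2 were at least 2-fold higher, with ratios from 2.27 to 5.96. Chga, the best known granin, stood at 1.28-fold, and Ptprn2 at 0.732-fold with an interval that includes 1. Vgf had 1 count in the db/m library and 29 in the db/db library. The summed counts of the 9 genes were 2.16-fold higher (2.05 to 2.27), and 2.07-fold (1.93 to 2.21) without Scg2, the member with the most counts. In bulk RNA a difference in the number of endocrine cells and a difference in RNA per cell cannot be told apart.

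The call of a gene as higher or lower required that its ratio was at least 2-fold, that its interval excluded 1 and that its mean unscaled CPM was at least 1. Of the 9 members, 6 were called higher, 0 lower and 2 neither, and Vgf was under the CPM limit. The other 8 reached 1 CPM in each library by itself. Over all 10300 genes compared, 3.83% were called higher and 4.04% lower. Among the 7421 genes whose mean CPM lay within the range of the members, a background chosen after the values were seen, 1.56% were called higher and 2.55% lower. The median log2 ratio of the 9 members was 1.5, beside 0.02 for all genes compared. The 6 higher calls were the same 6 genes with total counts, with DESeq2 size factors and with total counts taken without acinar and hormone genes, while the higher share of all calls went from 48.7% to 67.1%, 48.0% and 66.2% with these scalings. A scaling shifts the log2 ratio of every gene by the same amount. None of these shifts was large enough downward to remove a call from the members.

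**Figure D1:**
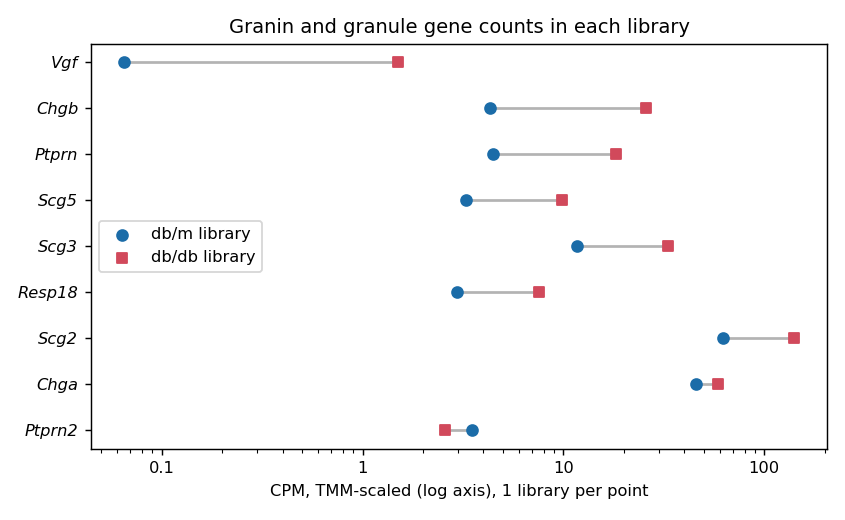
Scaled CPM (log axis) of the 9 granin and granule genes in the db/m library (circles) and the db/db library (squares), 1 library per point, ordered by ratio. Counts are not divided by transcript length, so points are to be compared within a row: the db/db square lies to the right for every gene but Ptprn2.

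Chgb (chromosome 2, 132781642 to 132795079 in GRCm38.p6), an acidic granin with a role in granule formation, had 66 counts in the db/m library and 498 in the db/db library. This equals 4.31 and 25.7 CPM and a ratio of 5.96 (4.61 to 7.83), above that of 99.5% of the genes compared. Chga (chromosome 12, 102554941 to 102565027), its relative that also drives granule formation and is the precursor of vasostatin and pancreastatin, had 701 and 1139 counts, or 45.8 and 58.8 CPM. Its ratio of 1.28 (1.17 to 1.41) excluded 1 but stayed under 2-fold, at a rank where 80.1% of the genes compared had a lower ratio. An interval wholly above 1, at any fold, was found for 20.7% of all genes compared. The ratio of Chgb was 4.64 times that of Chga (3.52 to 6.20).

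Scg2 (chromosome 1, 79434366 to 79440026), the precursor of secretoneurin, had the largest number of counts in the set, 950 in the db/m library and 2723 in the db/db library. Its levels of 62.0 and 141 CPM gave a ratio of 2.27 (2.10 to 2.44), the narrowest interval above 2-fold in the set. Scg3 (chromosome 9, 75643366 to 75685959), which binds Chga and holds it at the cholesterol-rich granule membrane, had 180 and 642 counts, or 11.8 and 33.1 CPM. The ratio was 2.82 (2.39 to 3.34). Scg3 thus stood well above its binding partner Chga on the ratio scale, by 2.20 times (1.81 to 2.67).

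Scg5 (chromosome 2, 113776313 to 113829091), a chaperone of the prohormone convertase Pcsk2, had 50 counts in the db/m library and 191 in the db/db library, or 3.27 and 9.86 CPM. Its ratio was 3.02 (2.20 to 4.21). Pcsk2 itself, named for this tie after its values were seen, had 280 and 409 counts and a ratio of 1.15 (0.989 to 1.35), so the chaperone and the enzyme did not share one ratio. Vgf (chromosome 5, 137025301 to 137033351), a precursor of neuroendocrine peptides first found as a target of nerve growth factor, had 1 and 29 counts, or 0.0653 and 1.5 CPM. The ratio of 22.9 has an interval of 3.8 to 936, which excludes 1 but leaves the size of the difference poorly known.

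Resp18 (chromosome 1, 75272197 to 75278415), a protein of endocrine cells whose sequence is related to the luminal part of Ptprn, had 45 counts in the db/m library and 146 in the db/db library, or 2.94 and 7.54 CPM. Its ratio was 2.56 (1.82 to 3.67). Ptprn (chromosome 1, 75247035 to 75264497) had 68 and 354 counts, or 4.44 and 18.3 CPM, and a ratio of 4.11 (3.17 to 5.42). Its close relative Ptprn2 (chromosome 12, 116485695 to 117278167) had 54 and 50 counts, or 3.53 and 2.58 CPM, and a ratio of 0.732 (0.488 to 1.10). A 2-fold higher level of Ptprn2 in the db/db library lies outside that interval. The ratio of Ptprn was 5.62 times that of Ptprn2 (3.44 to 9.17).

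Resp18 and Ptprn are next to each other on chromosome 1, 7700 bases apart. On the outer side of Ptprn, at 1343 bases, Dnajb2 had 156 and 153 counts and a ratio of 0.775 (0.616 to 0.975), and on the outer side of Resp18, at 30150 bases, Dnpep had 445 and 473 counts and a ratio of 0.840 (0.737 to 0.958). The higher ratios of the 2 granule genes were thus not shared by the genes that flank the pair. Itpk1, which lies 3556 bases after Chga, had a ratio of 1.13 (0.749 to 1.72), Trmt6, 9128 bases after Chgb, 1.19 (0.876 to 1.61), and Ap1s1, 1642 bases after Vgf, 1.57 (1.13 to 2.19). In the RefSeq annotation no other gene overlaps a member except within the long Ptprn2 gene. Of those, Gm17807 had 16 and 12 counts, so reads counted for Ptprn2 and for genes inside it may not be fully separable, since no source used here states whether counting used strand.

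**Figure D2:**
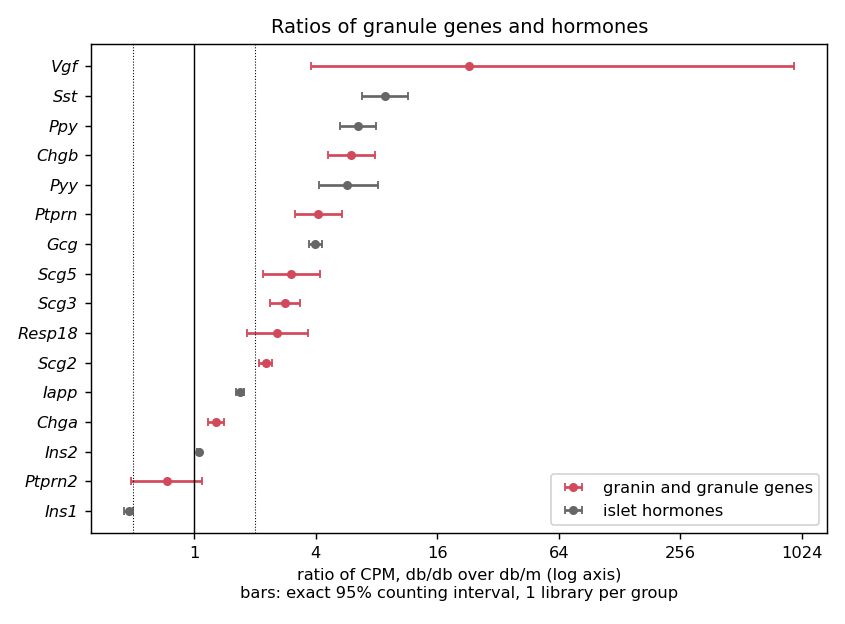
Ratio of the db/db over the db/m level (log axis) for the 9 granin and granule genes and the 7 islet hormone genes, with exact 95% counting intervals; the solid line marks 1 and the dotted lines 2-fold in either direction. The granule genes from Scg2 at 2.27 to Chgb at 5.96 lie between the beta cell hormone Iapp at 1.69 and the PP cell hormone Ppy at 6.44.

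The order of the ratios, from high to low, was Vgf, Chgb, Ptprn, Scg5, Scg3, Resp18, Scg2, Chga and Ptprn2. All 36 pairs of members were compared with an exact conditional interval for the ratio of their ratios, which does not depend on library scaling. In 27 pairs the interval excluded 1, and in 9 it included 1. Of the 8 pairs of neighbours in the order, 2 were separated beyond counting error: Scg2 from Chga, by 1.76 times (1.56 to 1.99), and Chga from Ptprn2, by 1.75 times (1.16 to 2.66). Chgb and Ptprn were not separated (1.45 times, 0.989 to 2.12), nor were Scg5 and Scg3 (1.07 times, 0.745 to 1.56), nor Resp18 and Scg2 (1.13 times, 0.798 to 1.63). The makeup of the granule RNA moved accordingly. Chga gave 33.1% of the 9-gene counts in the db/m library (31.1% to 35.2%) and 19.7% in the db/db library (18.7% to 20.8%), Chgb 3.12% (2.42% to 3.95%) and 8.63% (7.92% to 9.38%), and Scg2 44.9% (42.8% to 47.1%) and 47.2% (45.9% to 48.5%).

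Promoter sequence was examined because granin genes are classical carriers of the cAMP response element, the site of the CREB family of transcription factors, and because several members were higher together. The RefSeq table of GRCm38.p6 holds promoters of 8 members, all but Vgf, from 250 bases before to 50 bases after the annotated start. The full element TGACGTCA was found in Chgb, with its first base 72 bases before the start, and in Scg2, at 68 bases before it. With 1 free base, TGACGTNA, it was also found in Chga, at 44 bases before the start. The 150 bases before the start are shown for these 3 genes. For Ptprn2, the member with the lowest ratio, 125 bases are shown, because the start in the promoter table lies 25 bases inside the outermost bounds of the gene. The stretches are written 5′ to 3′ on the gene's strand, with matches to TGACGTNA or to TGACG on either strand in capitals.
Chgb, chr2:132781492-132781641, plus strand: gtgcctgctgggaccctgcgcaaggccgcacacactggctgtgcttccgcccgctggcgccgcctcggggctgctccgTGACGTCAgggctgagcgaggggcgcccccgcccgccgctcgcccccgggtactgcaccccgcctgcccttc
Scg2, chr1:79440027-79440176, minus strand: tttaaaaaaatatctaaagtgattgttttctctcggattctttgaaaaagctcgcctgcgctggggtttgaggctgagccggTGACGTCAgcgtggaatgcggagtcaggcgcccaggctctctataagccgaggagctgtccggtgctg
Chga, chr12:102554791-102554940, plus strand: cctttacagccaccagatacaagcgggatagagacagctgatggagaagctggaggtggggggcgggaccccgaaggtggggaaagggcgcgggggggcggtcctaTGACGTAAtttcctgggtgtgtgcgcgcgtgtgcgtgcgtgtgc
Ptprn2, chr12:116485570-116485694, plus strand: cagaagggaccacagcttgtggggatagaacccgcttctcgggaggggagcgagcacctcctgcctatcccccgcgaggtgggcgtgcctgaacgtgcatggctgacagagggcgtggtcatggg

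The motifs were chosen with the promoters in view, so the shares of members that follow are a description and not a test. Across 27025 genes with a promoter in the table, TGACGTCA occurred in 2.03%, against 2 of the 8 members, and TGACGTNA, which contains it, in 3.36%, against 3 of the 8. The short core TGACG, contained in both, occurred on either strand in 23.0% of all genes and in 6 members: Chga, Chgb, Scg2, Scg3, Scg5 and Ptprn. The starts of Scg3 and Ptprn in the table lie 1903 and at least 289 bases inside the bounds of their genes, so their windows describe an inner start. Neither Resp18 nor Ptprn2 held the core in this window. The GC box GGGCGG was found in 5 members and 38.2% of all genes, and the letters TATAAA in 15.7% of all genes and 1 member, Chga, where they begin at base 6 after the annotated start. TGACGTNA was present in Chgb, with a ratio of 5.96, in Scg2 at 2.27 and in Chga at 1.28, and the full TGACGTCA in Chgb and Scg2 only. Whether the element takes part in the ratios was not tested. Of the 449 genes compared whose promoter held TGACGTNA, 4.23% were called higher and 2.0% lower, beside 3.73% and 3.44% of the 7451 genes compared with a promoter in the table. A match is a run of letters and not evidence that a factor binds there.

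**Figure D3:**
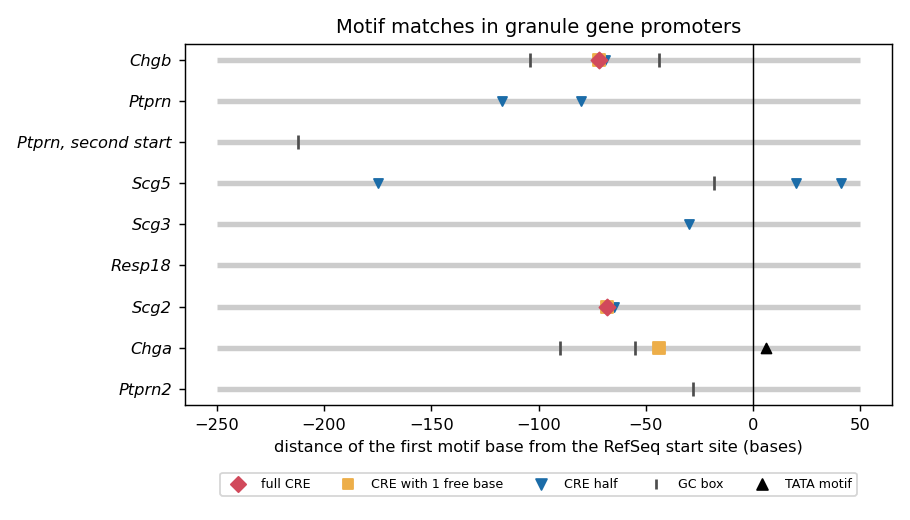
Position of each motif match (first base, in bases from the RefSeq start site) in the promoters of 8 members, with Ptprn shown for both of its annotated starts; grey bars are the windows searched and rows follow the order of the ratios. The full cAMP response elements of Chgb and Scg2 lie at similar distances, 72 and 68 bases before the start.

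Set against all genes, 97.3% of genes lay below Scg2 and 99.5% below Chgb, the called members with the lowest and the highest ratio. The 2-fold limit of the call places any gene called higher near the upper edge, so these ranks add nothing to the calls. Only Ptprn2 had a ratio below the median of all genes, with 14.8% of genes below it. The called members ranged in mean level from Resp18, with 5.39 CPM, to Scg2, with 104 CPM.

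**Figure D4:**
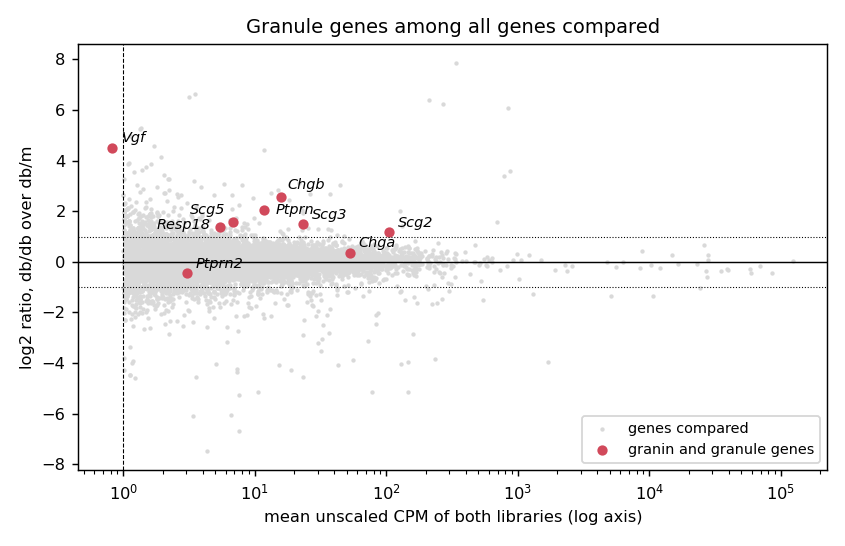
Log2 ratio of db/db over db/m against the mean unscaled CPM (log axis) for the 10300 genes compared (grey) and the 9 members (red); dotted lines mark 2-fold, and the dashed line the limit of 1 CPM. Chgb, Ptprn, Scg5, Scg3, Resp18 and Scg2 lie above the upper dotted line, Chga and Ptprn2 between the lines, and Vgf left of the CPM limit.

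Whether the granule genes were higher relative to other endocrine RNA was read by dividing each member by a reference gene or sum within each library. Against Ins2, the main insulin gene of the mouse, whose own ratio was 1.05 (1.03 to 1.07), 8 of 9 members had an interval above 1, and 7 of them were at least 2-fold. Chgb was 0.419% of Ins2 in the db/m library and 2.38% in the db/db library, a ratio of 5.68 (4.38 to 7.46). Scg2 was 6.03% and 13% of Ins2, a ratio of 2.16 (2.0 to 2.33), and Chga 4.45% and 5.44%, a ratio of 1.22 (1.11 to 1.35). Against the summed counts of 13 pan-endocrine transcription factors, not all of them limited to endocrine cells, 8 members were again above 1 and 7 at least 2-fold. Against the sum of the 7 hormones, 8 were above 1, but Chga only just, at 1.10 (1.0 to 1.22), and Ptprn2 was below, at 0.628 (0.419 to 0.941). This sum is not independent of Ins2, which gave 15757 of its 23867 counts in the db/m library and 20944 of 35167 in the db/db library.

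The result was different against the hormones of the other islet cells. Glucagon (Gcg) of alpha cells was 3.99-fold higher in the db/db library (3.68 to 4.32), and the sum of Gcg, Sst, Ppy and Pyy, hormones of alpha, delta and PP cells, 4.65-fold (4.34 to 4.98). Measured against that sum, a reference chosen after the values were seen, 0 members were above 1, 6 were below and 3 had an interval that includes 1: Vgf, Chgb at 1.28 (0.980 to 1.70) and Ptprn at 0.885 (0.674 to 1.17). Chga was the lowest of the granins relative to the sum, at 0.276 (0.245 to 0.311), and Scg2 stood at 0.487 (0.440 to 0.539). Against Gcg alone, Ptprn was at 1.03 (0.784 to 1.37), Scg5 at 0.758 (0.546 to 1.07) and Chgb above 1, at 1.5 (1.14 to 1.99), while 5 members were below Gcg (Scg3, Resp18, Scg2, Chga and Ptprn2). Against Sst alone, itself 8.79-fold higher (6.81 to 11.5), 0 members were above 1 and 8 below, with Chgb at 0.678 (0.465 to 0.990), and the interval of Vgf included 1. Scg5, Scg3, Resp18, Scg2 and Chga thus lay above Ins2 and below the sum, each with an interval that excludes 1 in both comparisons. How far a different mix of islet cells takes part in these ratios was not tested.

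**Figure D5:**
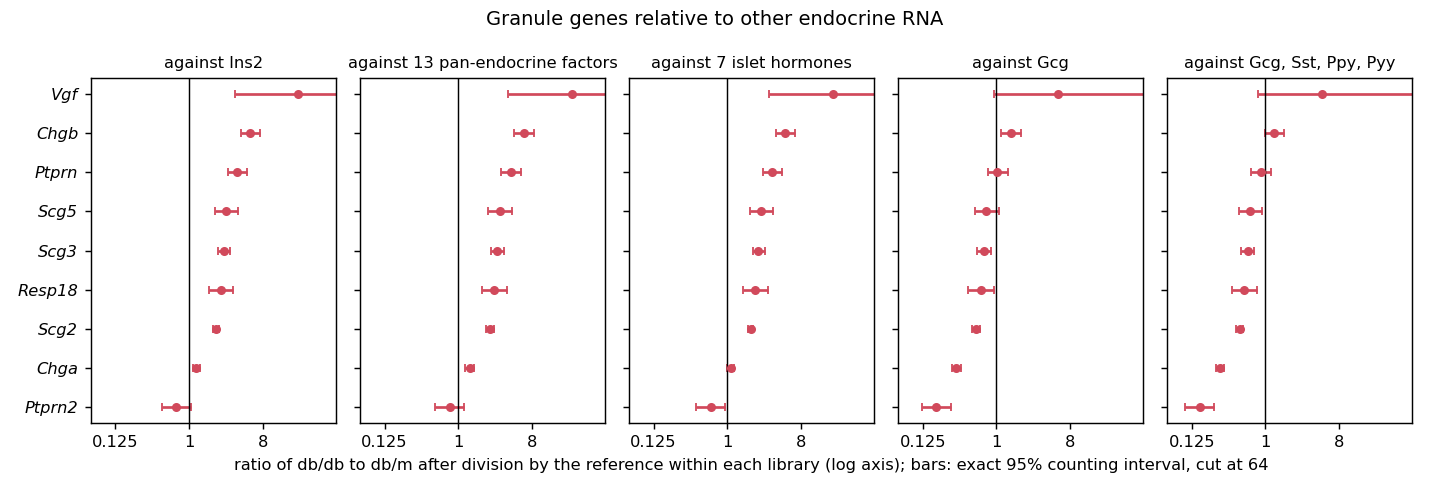
Ratio of db/db to db/m for each of the 9 members after division, within each library, by Ins2, by 13 pan-endocrine transcription factors, by 7 islet hormones, by Gcg, and by the sum of Gcg, Sst, Ppy and Pyy (log axes), with exact 95% counting intervals, those of Vgf cut at 64. In the first 2 panels 8 members lie above 1, and in the last panel none has an interval above 1.

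In a list of 35 genes of granule formation and prohormone processing, 28 reached a mean of 1 CPM, of which 1 was called higher, 2 lower and 25 neither, with a median log2 ratio of 0.02. These counts are near the 3.83% higher and 4.04% lower calls over all genes. The lower genes were Slc30a8, the zinc transporter of the insulin granule, with 227 and 66 counts and a ratio of 0.230 (0.172 to 0.303), and Stx6, a SNARE of the trans-Golgi network, with 30 and 18 counts and 0.474 (0.249 to 0.879). The higher gene was Slc18a1, a vesicular monoamine transporter, with 10 and 30 counts and a ratio of 2.37 (1.13 to 5.44). Atp6v0a1, a subunit of the proton pump that acidifies vesicles, stood at 1.87 (1.33 to 2.67). Slc18a1 in the db/m library and Stx6 in the db/db library were under 1 CPM, so each passed the CPM limit only through the library where it is high. With total counts Stx6 was no longer called and Atp6v0a1 was called higher.

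The prohormone processing genes given next, named after their values were seen, were called neither higher nor lower. The convertase gene Pcsk1 had 145 and 138 counts and a ratio of 0.752 (0.591 to 0.956). Carboxypeptidase E (Cpe), which trims basic residues from the cut peptides, was at 1.63 (1.43 to 1.86), and the amidating enzyme Pam at 1.70 (1.53 to 1.89). Pcsk1n, which encodes proSAAS, a granin-like inhibitor of Pcsk1, had 71 and 134 counts and a ratio of 1.49 (1.11 to 2.02). The ratios of Cpe, Pam and Pcsk1n were above that of the granin Chga, 1.28 (1.17 to 1.41), and the ratio of Pcsk1 was below it.

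Of 20 genes of granule docking and release with a mean of at least 1 CPM, 1 was called higher, 1 lower and 18 neither, again near the shares of 3.83% and 4.04% over all genes, with a median log2 ratio of 0.01. Snap25 and Vamp2, SNARE proteins of the plasma membrane and the vesicle, were at 2.05 (1.21 to 3.63) and 1.98 (1.71 to 2.31), and Vamp2 was called with total counts. Stx1a, the syntaxin that pairs with them, had 44 and 18 counts and a ratio of 0.323 (0.176 to 0.571), and was under 1 CPM in the db/db library. Among 16 regulators of neuroendocrine genes, 9 reached a mean of 1 CPM and 0 were called in either direction. The highest ratios among those 9 were Myt1 at 1.64 (0.818 to 3.46) and St18 at 1.58 (1.04 to 2.44), zinc finger factors of endocrine cells, and Atf1, a CREB relative, at 1.52 (1.30 to 1.78). The other CREB-related genes of the list lay lower. Creb1 was at 0.835 (0.703 to 0.992), Crem at 0.753 (0.476 to 1.19) and Crtc2 at 0.756 (0.558 to 1.02). Rest, the repressor of neuronal and endocrine genes, named for that role after its values were seen, had 25 and 30 counts and a ratio of 0.948 (0.539 to 1.68).

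Markers of islet cell types moved in different directions beside the granule genes. Of 14 beta cell markers 13 were compared, and 0 were called higher and 6 lower (5 with total counts, without Ins1), beside 3.83% and 4.04% of all genes. Among the lower genes were Mafa at 0.0958 (0.0247 to 0.269) and Slc2a2 at 0.214 (0.143 to 0.314), and the median log2 ratio of the markers compared was -0.57. The other 7 were called neither. Of these, Iapp at 1.69 (1.61 to 1.76), Abcc8 at 1.43 (1.22 to 1.68) and Ins2 at 1.05 (1.03 to 1.07) had intervals above 1. Glp1r, at 0.673 (0.593 to 0.765), had one below 1, and the intervals of G6pc2, Pdx1 and Kcnj11 included 1. The summed level of the beta cell list, 1611 CPM in the db/m library and 1605 CPM in the db/db library, was mostly that of Ins2, with 1029 and 1081 CPM. Of 9 alpha cell markers 4 were compared, and 2 were higher (Gcg and Gc) and 0 lower, with a summed level of 103 and 265 CPM. The alpha cell factors Irx1 and Irx2 had 0 counts in the db/m library and 3 and 2 in the db/db library. Of 8 delta and PP cell markers 6 were compared, and 5 were higher (Sst, Ppy, Pyy, Etv1 and Rbp4, the last not with DESeq2 size factors) and 0 lower, with a summed level of 17.2 and 102 CPM. The remaining marker compared, Hhex, had 34 and 27 counts and a ratio of 0.628 (0.364 to 1.07). Of 13 pan-endocrine transcription factors 11 were compared, and 2 were higher, 1 lower and 8 neither, with a median log2 ratio of -0.04. Isl1 at 3.95 (1.73 to 10.5) and Rfx6 at 2.04 (1.40 to 3.01) were higher and Neurod1 at 0.474 (0.249 to 0.879) lower, the last not with total counts. Of these genes Gc, Etv1, Rbp4 and Isl1 in the db/m library and Mafa and Neurod1 in the db/db library were under 1 CPM, so each passed the CPM limit only through the library where it is high.

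Granins are also made in neurons and in enterochromaffin cells, so those markers were read as well. Of 18 neuron markers 0 reached 1 CPM, and their summed level was 1.89 CPM in the db/m library and 4.70 CPM in the db/db library, 2.48-fold higher (1.62 to 3.91). In the db/m library 8 of them were at 0 and in the db/db library 7. Stmn2 had 1 count and 0 counts, Prph 1 and 2, Elavl4 16 and 17, and Dbh 0 in both libraries. Th, the gene of tyrosine hydroxylase, had 1 and 29, Tubb3 3 and 16, a ratio of 4.22 (1.21 to 22.6), and Snap91 2 and 10. The whole list held 29 and 91 counts, so Th alone holds a large part of the difference in the sum. The part of neuronal RNA in the granule ratios was not tested. Among 6 enterochromaffin cell markers, Tph1, the enzyme that defines these cells in making serotonin, and Slc6a4 had 0 counts in both libraries, and the list summed to 5.75 and 6.61 CPM. Most of that sum was Ddc, with 78 and 97 of the 88 and 128 counts. Slc18a1, which is also in this list and was called higher, had 10 and 30. The 9 Schwann cell markers summed to 3.20 and 2.63 CPM.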

How the data were processed

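The authors' deposited table gives whole-number counts per gene, 1 column per library; the aligner was HISAT2 2.0.4 and the builds mm10 and GRCm38, per the submitters' processing notes. No source used here names the counting program, its annotation, its use of strand or its treatment of reads with several matches. Counts were scaled with TMM (edgeR 4.0.16, R 4.3.3) and divided by scaled library size. Ratios carry Clopper-Pearson 95% intervals, and ratios between genes exact conditional ones (Python 3.11.15, scipy 1.17.1). PCR copies are not independent molecules, so intervals cover counting error only. The calling functions were tested on simulated data. Transcript lengths and proteins were not used here, so the planned levels per length and protein features were not computed and levels of different genes are not compared. The members, 17 gene lists and motifs were chosen with earlier results of these data known, and the motifs with the promoters in view. Of 248 list entries, 243 were found. Named are the members, the hormones, up to 4 genes per list with the largest ratio in either direction at 1 CPM or more, called granule formation genes and neighbours of members; others named were chosen after their values were seen. Promoters and positions come from RefSeq (GRCm38.p6), matched by symbol for 8 and 9 members. Alternatives were 3 other scalings (one with DESeq2 1.42.0 size factors), other CPM and fold limits, stricter intervals and other references.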

Additional observations from a re-analysis of the deposited data

How the results depend on the processing

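The 6 higher and 0 lower calls among the members were unchanged by the 3 other scalings, by a fold limit of 1.5 and by an interval at the Bonferroni level. Of these settings, only the Bonferroni interval could have removed a higher call. The scalings shift every log2 ratio upward or by -0.00846, and a lower fold limit can only add calls. The higher calls were 7 without a CPM limit (Vgf added), 4 at 10 CPM, 5 with the interval wholly beyond 2-fold, and 2 (Chgb and Ptprn) with a fold limit of 4. The count over all genes, 811, was 1559 without a CPM limit, 131 at 10 CPM, 1803 with a fold limit of 1.5, 154 with one of 4, 351 at the Bonferroni level and 236 with the interval wholly beyond 2-fold, as these rules are built to admit more or fewer genes. Total counts raised every log2 ratio by 0.175 and total counts without acinar and hormone genes by 0.162, which took the summed ratio of the 9 genes from 2.16 to 2.44 and 2.41. Of 27 single ratios recomputed with other scalings, 23 stayed within their interval and 4, of Scg2 and Chga, moved beyond it; 0 changed direction. Members above 1 numbered 8 against Ins2, against the sum of all hormones, which is mostly Ins2, and against transcription factors. They numbered 0 against the sum of Gcg, Sst, Ppy and Pyy, a reference added after the data were seen. The cause was not tested. Depth limits Vgf most, with 1 count in the db/m library. No paired analysis was possible because there is 1 library per group.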
